A study of Danio rerio with 18 samples.

Results

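The lysosome is described here through 53 genes of its hydrolases, membrane proteins and proton pump in whole zebrafish larvae. They are the table's rows whose symbols name cathepsins, legumain, a set of glycosidases, prosaposin, LAMP, scavenger receptor B2, Niemann-Pick C, mucolipin or V-ATPase (vacuolar-type proton pump) V0 and V1 genes. A mean of at least 10 reads over the 18 libraries was required. Of 25266 rows that name a gene, 62 matched the symbols. Of these, 6 numbered copies and 3 rows under the mean were set aside, and all of the 53 that remained passed the low-count filter. The rule is by name, so it also takes gba2 and gba3, which encode glucosylceramide-degrading enzymes outside the lysosome in mammals, and npc1l1, whose product takes up sterol at the intestinal surface. The members just above the threshold were gba3, gaa and atp6v0a2a, with means of 15.4, 24.6 and 28.3 reads. The rows under it were atp6v1c2, hexa and atp6v0a2b, with 7.06, 5.39 and 2.56 reads. The numbered copy of atp6v0a2b, which was set aside, had a mean of 63.9 reads.

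The study asked how larvae of a susceptible and a resilient stress archetype differ, and its title names complement factors. Wildtype larvae of the AB strain were assigned to an archetype at 6 days post fertilization (dpf) and collected singly at 7 dpf. How they were scored is not described in the labels. The groups were 5 susceptible stressed, 4 susceptible basal, 5 resilient stressed and 4 resilient basal larvae, where stressed larvae were taken 30 min after a stress of 5 min and basal larvae had none. The labels name no transgene or mutant allele. Each library is 1 whole larva, so a change in a gene may come from fewer cells of a type or from less RNA per cell, and these cannot be told apart. Stressed and basal larvae are different animals whose clutch and day the labels do not name.

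Lysosomes break down proteins, lipids and sugars delivered by endocytosis, phagocytosis and autophagy. The V-ATPase keeps them acid: its cytosolic V1 sector hydrolyses ATP, and this turns a rotor that drives protons through the membrane-bound V0 sector. Cathepsins and legumain are proteases that are made as inactive precursors and work best at acid pH. In fish larvae, macrophages and the lysosome-rich enterocytes of the gut are known for high lysosomal activity, while the V-ATPase also acidifies synaptic vesicles and works at the surface of ionocytes.

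Libraries held between 8452595 and 23801175 reads, and 22038 genes were tested. A gene counts as called where edgeR's quasi-likelihood test over all genes gave an adjusted p (Benjamini-Hochberg) under 0.05. Levels are in CPM, read counts scaled to library size, and fold changes are log2 values with their standard error (SE). Over all genes, 1399 were called between resilient stressed and resilient basal larvae. That count was 38 without resilient basal larvae 1 and 3, and 69 without resilient stressed larvae 2 and 3, and where the call of a named gene ended without them, this is given with the gene. CPM are not divided by gene length, so levels are compared between larvae and not between genes.

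Most of the lysosomal genes passed the test in no comparison. The summed level of all 53 was 6050 ± 211 CPM in susceptible stressed, 6160 ± 272 CPM in susceptible basal, 5930 ± 338 CPM in resilient stressed and 6150 ± 405 CPM in resilient basal larvae (SD, n = 5, 4, 5 and 4). The exceptions were cysteine cathepsins. In resilient larvae ctss2.1, ctss2.2 and ctsc were lower after stress, and ctss2.1, ctsk and ctsc were higher in susceptible than in resilient stressed larvae.

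**Figure D1:**
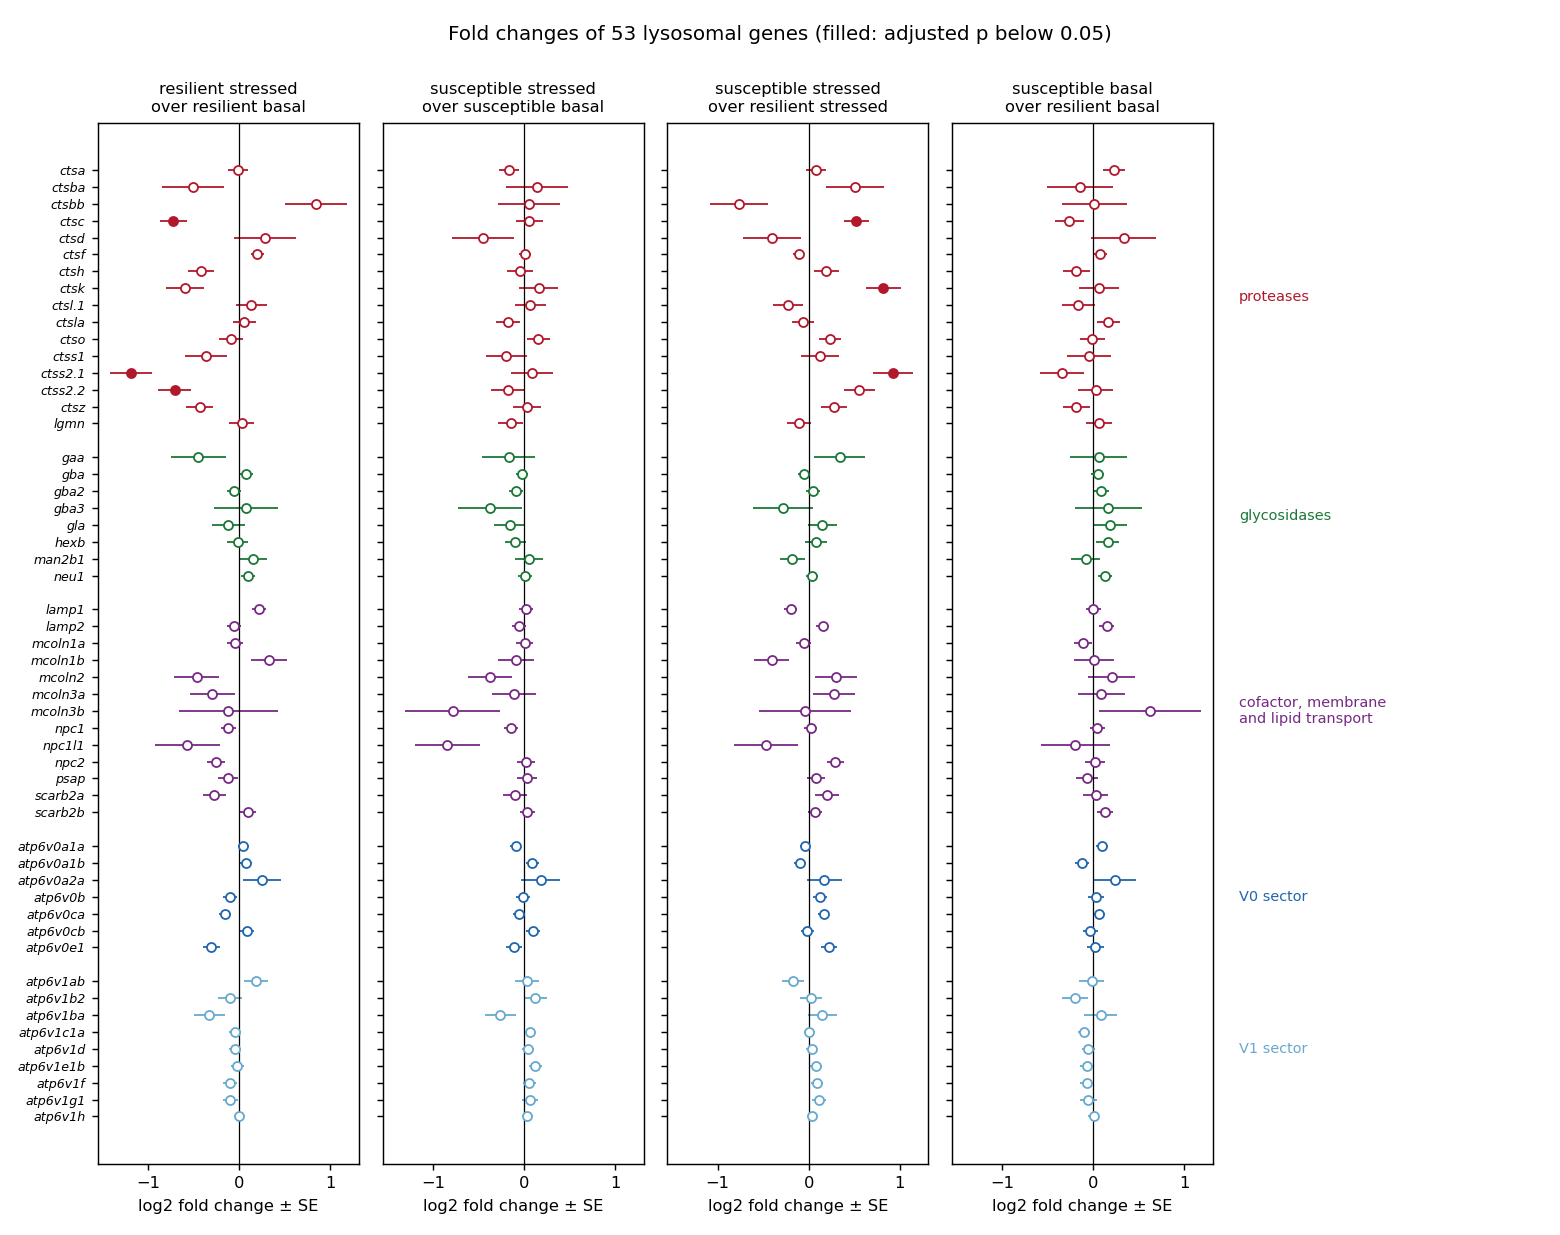
Log2 fold change with SE (x axis) of each of the 53 genes (y axis, grouped and coloured by role) in 4 comparisons, each named with its numerator first. Filled points passed the test: 3 proteases between resilient stressed and resilient basal larvae, 3 proteases between susceptible and resilient stressed larvae, and no gene in the other comparisons.

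Between resilient stressed and resilient basal larvae, 3 of 53 members were called, all of them lower. That is 5.66% of the members, beside 6.35% of all genes called, and 3.59% of all genes called lower. An unadjusted p below 0.05 was found for 12 members (22.6%), beside 21.6% of all genes. DESeq2 called 7 members (13.2%), 1 higher and 6 lower, beside 8.85% of all genes. The edgeR share of these 53 members that changed was thus near that of the whole table, while the DESeq2 share was higher. Genes of like read count were not set beside the members, here or in the counts below. Such shares therefore cannot show whether members were called more often than others of their level. The median log2 fold change was -0.0608 over the members and 0.00406 over all genes.

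Between susceptible and resilient stressed larvae, 3 of 53 members were called, all of them higher in susceptible larvae. That is 5.66% of the members, beside 3.55% of all genes called and 1.77% called higher. An unadjusted p below 0.05 was found for 11 members (20.8%), beside 19.9% of all genes. DESeq2 called 4 members (7.55%), beside 7.78% of all genes. The comparison uses the same resilient stressed larvae as the one before it, so the opposite signs of the genes in them are not independent. The median log2 fold change was 0.077 over the members and -0.00274 over all genes.

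Between susceptible stressed and susceptible basal larvae 0 of 53 members were called by edgeR, beside 0% of all genes, and 1 (1.89%) had an unadjusted p below 0.05, beside 7.45% of all genes. Between susceptible basal and resilient basal larvae 0 were called by edgeR, beside 0% of all genes, and 0 had an unadjusted p below 0.05, beside 5.95%. DESeq2 also called 0 members in each of these comparisons, where it called 0.194% and 0.0746% of all genes. In the authors' deposited table, 6 of the 53 members (11.3%) had an adjusted p below 0.05 between the resilient groups, beside 7.12% of all rows. Between the stressed groups 3 members (5.66%) did, beside 5.78% of all rows. That table had 0 members between the susceptible groups (0.194% of all rows) and 0 between the basal groups (0.0752% of all rows).

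The proteases held all of the calls. Cathepsin S is a cysteine protease that in mammals trims the invariant chain of MHC class II in antigen-presenting cells. The zebrafish genes ctss2.1 and ctss2.2 are closely related neighbours, so the split of reads between them is uncertain. ctss2.1 had 17.9, 12.1, 13.6, 8.79 and 13.4 CPM in resilient stressed larvae 1 to 5, against 36, 19.5, 35.1 and 29.1 CPM in resilient basal larvae 1 to 4. Every resilient stressed larva lay below every resilient basal larva, with stressed larva 1 closest to basal larva 2. The log2 fold change was -1.19 (SE 0.23, edgeR adjusted p = 0.00886), which is 0.439 of the basal level. The call held with any 1 of the 18 larvae left out (adjusted p up to 0.0393). It ended without resilient basal 1 and 3 (log2 fold change -0.878, adjusted p = 0.217) and without resilient stressed 2 and 3 (-1.16, adjusted p = 0.0929).

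In susceptible larvae ctss2.1 had 19.1, 27.9, 20.8, 22.7 and 33.9 CPM in stressed larvae 1 to 5, against 25.1, 30.7, 16.2 and 21.7 CPM in basal larvae 1 to 4. These groups overlapped almost entirely, while all 5 susceptible stressed larvae lay above all 5 resilient stressed larvae. ctss2.1 averaged 24.9 ± 6.03 CPM in susceptible stressed and 13.2 ± 3.29 CPM in resilient stressed larvae (SD, n = 5 each), with log2 fold change 0.928 (SE 0.22, edgeR adjusted p = 0.0293). That call ended when resilient stressed 2, 3 or 4 or susceptible stressed 2, 4 or 5 was left out (adjusted p 0.0525 to 0.0812), with log2 fold changes of 0.782 to 0.959. Without resilient stressed 2 and 3 together ctss2.1 was at 0.91 (adjusted p = 0.22).

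ctss2.2 had 4.94, 4.94, 5.72, 6.03 and 5.99 CPM in resilient stressed larvae 1 to 5, against 11.2, 7.01, 9.25 and 8.86 CPM in resilient basal larvae 1 to 4. The stressed larvae lay close together and below all basal larvae. The log2 fold change was -0.71 (SE 0.18, edgeR adjusted p = 0.0283), and the call ended without resilient basal 1, 3 or 4 or resilient stressed 1, 2 or 3 (adjusted p up to 0.119). Without resilient basal 1 and 3 ctss2.2 was at -0.506 (adjusted p = 0.396), and without resilient stressed 2 and 3 at -0.674 (adjusted p = 0.173). In susceptible stressed larvae it was at 8.16 ± 1.02 CPM, against 5.52 ± 0.548 CPM in resilient stressed larvae (SD, n = 5 each), and did not pass the test (0.557, SE 0.17, edgeR adjusted p = 0.0744), although the groups did not overlap.

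ctsc encodes dipeptidyl peptidase I, which in mammals activates granule proteases of leukocytes. It had 119, 88.1, 118, 80.7 and 107 CPM in resilient stressed larvae 1 to 5, against 217, 141, 155 and 164 CPM in resilient basal larvae 1 to 4. No resilient stressed larva reached the lowest basal one, and basal larva 1 was the highest. The log2 fold change was -0.725 (SE 0.15, edgeR adjusted p = 0.0107), and this call held with any 1 larva left out (adjusted p up to 0.0499). It ended without resilient basal 1 and 3 (-0.568, adjusted p = 0.201) and without resilient stressed 2 and 3 (-0.729, adjusted p = 0.0895).

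In susceptible stressed larvae 1 to 5 ctsc had 115, 149, 150, 159 and 164 CPM, against 125, 175, 118 and 147 CPM in susceptible basal larvae 1 to 4. Susceptible stressed larva 1 overlapped the resilient stressed larvae, and the other susceptible stressed larvae lay above them. Between susceptible and resilient stressed larvae the log2 fold change was 0.524 (SE 0.14, edgeR adjusted p = 0.0495). That call sat at the threshold and held in 5 of the 18 fits that leave out 1 larva. It ended without resilient basal 2, 3 or 4, resilient stressed 2, 3 or 4, susceptible basal 1, 3 or 4, or susceptible stressed 2, 3, 4 or 5 (adjusted p 0.051 to 0.133, log2 fold changes 0.449 to 0.579). Without resilient stressed 2 and 3 together the adjusted p of ctsc was 0.238, with RLE factors 0.0527 and without the low-count filter 0.0512.

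ctsk encodes cathepsin K, known in mammals as the collagen-degrading protease of osteoclasts. It had 65.7, 79.9, 116, 91.0 and 91.9 CPM in susceptible stressed larvae 1 to 5, against 71.4, 38.9, 53, 33.9 and 54.3 CPM in resilient stressed larvae 1 to 5. Resilient stressed larva 1 lay above susceptible stressed larva 1, and the other larvae were separated by group. The log2 fold change was 0.821 (SE 0.19, edgeR adjusted p = 0.0305). The call ended without resilient stressed 2, 3 or 4 or susceptible stressed 3, 4 or 5 (adjusted p 0.0515 to 0.0885), and without resilient stressed 2 and 3 together (0.742, adjusted p = 0.238). In a fit of the stressed larvae alone the adjusted p of ctsk was 0.0645. Between resilient stressed and resilient basal larvae ctsk was at 50.3 ± 14.7 CPM (n = 5) and 76.1 ± 12.8 CPM (SD, n = 4), and this did not pass the test (-0.599, SE 0.21, edgeR adjusted p = 0.095). In the RefSeq annotation of GRCz12tu, used for names and neighbours only, ctsk, ctss2.1 and ctss2.2 follow each other with 0 protein-coding genes between them.

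**Figure D2:**
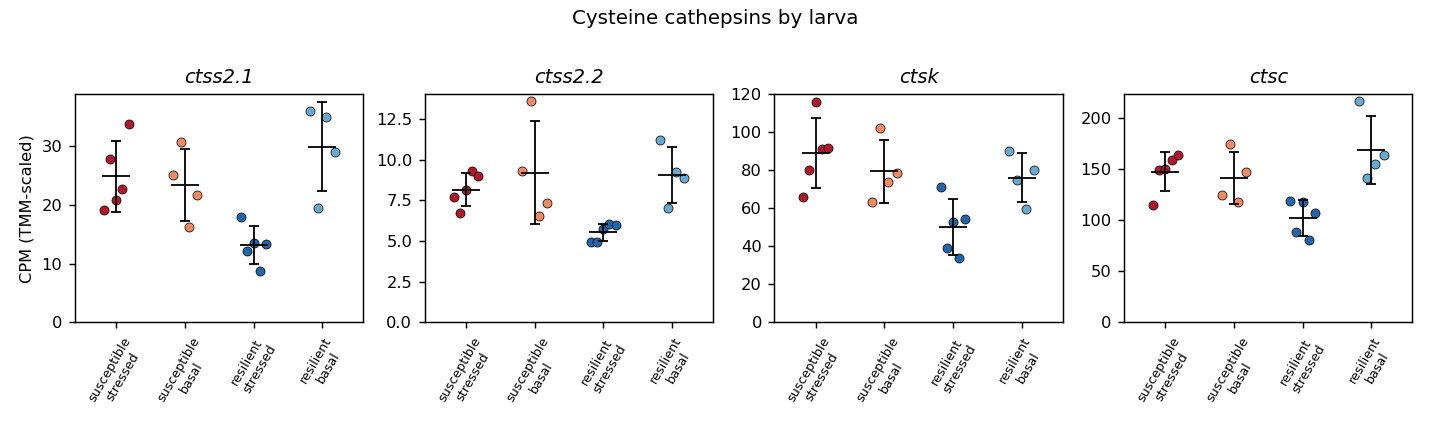
CPM (y axis, from 0) of ctss2.1, ctss2.2, ctsk and ctsc in each larva (points) of the 4 groups (x axis), with mean and SD. The resilient stressed larvae have the lowest mean of each panel, with values of 8.79 to 17.9 CPM for ctss2.1 and 80.7 to 119 CPM for ctsc.

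The difference between the stress responses was tested directly, as the susceptible response minus the resilient one. edgeR called 0 of 53 members for it, beside 0.141% of all genes, and 4 members (7.55%) had an unadjusted p below 0.05, beside 13.1% of all genes. ctss2.1 had the smallest p of the members, with a difference of 1.27 on the log2 scale (SE 0.33, edgeR adjusted p = 0.102). It was followed by ctsc (0.785, SE 0.21, adjusted p = 0.117 in edgeR) and ctsk (0.759, SE 0.29, edgeR adjusted p = 0.272). DESeq2 called ctss2.1 and ctsc (adjusted p = 0.0106 and 0.026), 2 members beside 2.21% of all genes. Without resilient basal larva 2 edgeR called ctss2.1 alone (1.43, adjusted p = 0.0479).

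Some macrophage and microglia markers were called in the same comparisons. Of 20 tested markers, none of them a lysosomal member, 6 were lower and 0 higher between resilient stressed and resilient basal larvae, beside 6.35% of all genes called and 3.59% called lower. The median log2 fold change was -0.659, with 16 of the 20 below 0. Their summed level was 1010 to 1400 CPM in resilient stressed larvae, against 1430 to 2690 CPM in resilient basal larvae. This sum may not follow macrophages. It was 1380 CPM in resilient stressed larva 4, which had the lowest mpeg1.2 of its group at 32.2 CPM. mpeg1.2, a pore-forming protein gene of macrophages, had log2 fold change -1.89 (SE 0.35, edgeR adjusted p = 0.00815). Its level was 231, 89.2, 129 and 181 CPM in resilient basal larvae 1 to 4. In susceptible basal larvae 1 to 4 it was 60, 108, 40.9 and 72.7 CPM (-1.16 between the basal groups, SE 0.36, edgeR adjusted p = 0.747). csf1ra did not pass the test between the resilient groups (-0.279, SE 0.17, edgeR adjusted p = 0.359). The calls of mpeg1.2 and of mfap4 (-1.48, SE 0.38, edgeR adjusted p = 0.0325) ended without resilient basal 1 and 3 and without resilient stressed 2 and 3. That of mfap4 also ended without resilient basal 1 or 3 or resilient stressed 2, 3 or 4 alone. p2ry12 was lower too (-1.49, SE 0.34, edgeR adjusted p = 0.0167). Its call ended without either pair, and without resilient basal 4 or resilient stressed 2 alone.

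Between susceptible and resilient stressed larvae, 4 of the 20 markers were higher and 0 lower, beside 3.55% of all genes called and 1.77% called higher. The median was 0.702, with 16 of the 20 above 0. The summed levels were 1450 to 1910 CPM in susceptible stressed larvae, against 1010 to 1400 CPM in resilient stressed larvae. These sums too may not follow macrophages. havcr1 had the smallest p, higher by 1.28 (SE 0.24, edgeR adjusted p = 0.0111), and this held with any 1 larva left out. The scavenger receptor gene marco was higher by 1.55 (SE 0.35, edgeR adjusted p = 0.0247) and p2ry12 by 1.38 (SE 0.32, edgeR adjusted p = 0.0266). The myeloid transcription factor gene spi1b was higher by 0.769 (SE 0.19, edgeR adjusted p = 0.037). The calls of marco and spi1b ended without resilient stressed 2 or 3 or susceptible stressed 3, 4 or 5. That of spi1b also ended without resilient stressed 4 or susceptible stressed 2. The call of p2ry12 ended without resilient stressed 2, 3 or 4 or susceptible stressed 2 or 5. Leaving out resilient stressed 2 and 3 together ended all 4. Between susceptible stressed and susceptible basal larvae 0 of 20 were called, beside 0% of all genes. For the difference of responses 0 of 20 were called, beside 0.141% of all genes. No marker of the list was at 0 in all larvae. The part of these cells in the cathepsin values was not tested.

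Markers of other cell types that could hold lysosomal genes were counted in the same way. Of 9 tested neutrophil markers, 1 was lower and 0 higher between resilient stressed and resilient basal larvae (median -0.729), with 8 of 9 below 0. Over all genes 6.35% were called there, and 3.59% were called lower. The called neutrophil marker was srgn (-1.39, SE 0.24, edgeR adjusted p = 0.0044). Without resilient basal 1 and 3 srgn was at -0.833 (edgeR adjusted p = 0.167). The summed levels of the 10 matched neutrophil markers were 3480 to 5180 CPM in resilient stressed larvae and 3300 to 4160 CPM in resilient basal larvae. The neutrophil list shares cpa5 with the exocrine pancreas list, so its sum may not follow neutrophils. Of 5 tested osteoclast markers other than ctsk, 1 was lower between the resilient groups and higher between susceptible and resilient stressed larvae. It was tcirg1b, described with the proton pump. Between the stressed groups 3.55% of all genes were called and 1.77% called higher. The summed level of the 6 matched markers other than ctsk was 45.0 to 52.8 CPM in resilient stressed larvae and 55.9 to 76.1 CPM in resilient basal larvae. Of these sums tcirg1b alone held 21.3 to 28.8 CPM and 34.8 to 44.5 CPM. Between these groups 3 of the 5 markers had a negative and 2 a positive log2 fold change. Of 10 markers of lysosome-rich enterocytes, 0 were called by edgeR in any comparison. Their summed level was 533 to 877 CPM in resilient stressed larvae and 368 to 609 CPM in resilient basal larvae. There were likewise 0 calls among 9 ionocyte, 2 hatching gland, 18 neuron and 15 exocrine pancreas markers. Between susceptible stressed and susceptible basal larvae, 9 of 9 ionocyte markers had a negative log2 fold change (median -0.261) and 18 of 18 neuron markers a positive one (median 0.0969). Between susceptible basal and resilient basal larvae, 8 of 9 ionocyte markers were positive and 17 of 18 neuron markers negative. Both comparisons use the same susceptible basal larvae. Over all genes the median was -0.0041 in the first and 0.00284 in the second. The summed pancreas markers were at 11800 to 21800 CPM in susceptible stressed and 21400 to 33400 CPM in resilient stressed larvae. They were at 3570 to 27300 CPM in susceptible basal and 20000 to 26400 CPM in resilient basal larvae. Between susceptible and resilient stressed larvae 15 of 15 pancreas markers were negative (median -0.746, against -0.00274 over all genes). Between resilient stressed and resilient basal larvae 14 of 15 were positive (median 0.471, against 0.00406 over all genes). Those comparisons share the resilient stressed larvae. The part of these cell types was not tested.

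The other proteases did not pass the edgeR test in any comparison, while DESeq2 also called ctsz, ctsf and ctsk between the resilient groups. ctsz, a carboxypeptidase gene, was at 122 ± 22.2 CPM in resilient stressed (n = 5) and 165 ± 32.8 CPM in resilient basal larvae (SD, n = 4), with log2 fold change -0.434 (SE 0.15, edgeR adjusted p = 0.0849). ctsh, an aminopeptidase gene, was at 58.5 ± 7.75 CPM in resilient stressed larvae and 78.5 ± 16.1 CPM in resilient basal larvae (-0.421, SE 0.14, edgeR adjusted p = 0.0904). The values of ctsz and ctsh overlapped between the groups. ctsf pointed the other way, with 390, 402, 379, 340 and 338 CPM in resilient stressed larvae 1 to 5 against 306, 337, 314 and 330 CPM in resilient basal larvae 1 to 4. Its groups did not overlap, by a margin of 1 CPM, and it did not pass the test (0.2, SE 0.067, edgeR adjusted p = 0.0854). Groups that do not overlap were found for 3 members lower and 2 higher in this comparison, beside 4.36% and 4.11% of all genes. Between the susceptible groups this held for 0 members in either direction, beside 1.3% of all genes higher and 1.43% lower. Between the basal groups it held for 1 member higher, atp6v0a1a, and 0 lower, beside 1.63% and 1.66%.

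The proteases that took the most reads did not pass the test. ctsla, a cathepsin L gene, was at 773 ± 70.6 CPM in susceptible stressed and 871 ± 174 CPM in susceptible basal larvae (SD, n = 5 and 4), with log2 fold change -0.172 (SE 0.13, edgeR adjusted p = 0.838). In resilient larvae its log2 fold change was 0.0562 (SE 0.13). ctsl.1, a further cathepsin L gene, ranged from 258 to 640 CPM over the 18 larvae, and its log2 fold changes in the 4 pairwise comparisons were between -0.227 and 0.13. The gene of legumain, lgmn, a protease that cuts after asparagine and activates cathepsins, ranged from 361 to 574 CPM, with log2 fold changes between -0.146 and 0.0629. The summed level of the 16 proteases was 2910 ± 171 CPM in susceptible stressed, 3010 ± 222 CPM in susceptible basal, 2900 ± 284 CPM in resilient stressed and 2990 ± 299 CPM in resilient basal larvae (SD, n = 5, 4, 5 and 4). These sums are carried by the genes with the most reads and overlap between all groups.

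Among the V-ATPase genes that the symbol rule took, none was called. edgeR called 0 of these 16 members in each of the 5 comparisons. An unadjusted p below 0.05 was found for 2 of them between resilient stressed and resilient basal larvae (21.6% of all genes), 2 between susceptible and resilient stressed larvae (19.9% of all genes) and 0 in the other comparisons. DESeq2 called atp6v0e1 alone, between the resilient groups. The median log2 fold change of the 16 subunits lay between -0.0488 and 0.0582 in the 4 pairwise comparisons, with a median SE of 0.072 to 0.081. Their summed level was 1690 ± 68.0 CPM in susceptible stressed, 1660 ± 69.2 CPM in susceptible basal, 1630 ± 64.2 CPM in resilient stressed and 1680 ± 70.5 CPM in resilient basal larvae (SD, n = 5, 4, 5 and 4).

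In the V1 sector, atp6v1h, a regulatory subunit gene, ranged from 92.9 to 112 CPM over all 18 larvae. Its log2 fold change was 0.00198 (SE 0.06) between resilient stressed and resilient basal larvae. atp6v1d, a rotor subunit gene, ranged from 129 to 159 CPM. atp6v1e1b, a stator subunit gene, had the smallest p of the V-ATPase genes in susceptible larvae, with 146 ± 3.76 CPM in stressed and 134 ± 9.55 CPM in basal larvae (SD, n = 5 and 4), a log2 fold change of 0.123 (SE 0.072, edgeR adjusted p = 0.758). The groups overlapped for each of these subunits. Of the 9 V1 genes 4 have a numbered copy that was not counted with them, so their own counts are uncertain. The copy had more reads than the member for atp6v1ba (means of 621 against 108) and atp6v1g1 (436 against 369). It had fewer for atp6v1ab and atp6v1b2.

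In the V0 sector, atp6v0ca, a gene of the proton-conducting ring, had 407, 374, 362, 394 and 429 CPM in resilient stressed larvae 1 to 5, against 460, 406, 464 and 422 CPM in resilient basal larvae 1 to 4. The groups overlapped, and the log2 fold change of -0.156 (SE 0.065) did not pass the test (edgeR adjusted p = 0.168). The second ring gene, atp6v0cb, was at 0.0837 (SE 0.077). atp6v0e1, a small membrane subunit gene, was at 24.6 ± 2.39 CPM in resilient stressed and 30.4 ± 2.37 CPM in resilient basal larvae (SD, n = 5 and 4), with log2 fold change -0.308 (SE 0.093, edgeR adjusted p = 0.0557). It was called in 4 of the 18 fits that leave out 1 larva, by DESeq2, and without susceptible basal 1 and 2. atp6v0a1b, which encodes an a subunit of the membrane sector, was at 136 ± 11.3 CPM in susceptible basal and 149 ± 3.81 CPM in resilient basal larvae (SD, n = 4 each), with log2 fold change -0.123 (SE 0.074, edgeR adjusted p = 0.868).

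Pump genes outside the symbol rule did pass the test. tcirg1b encodes the a3 form of the membrane subunit, which in mammals is the one of osteoclasts. It had 28.8, 23.1, 26.4, 21.3 and 25.8 CPM in resilient stressed larvae 1 to 5, against 38.2, 34.8, 44.5 and 37.7 CPM in resilient basal larvae 1 to 4. All resilient stressed larvae were below all resilient basal larvae, at log2 fold change -0.629 (SE 0.14, edgeR adjusted p = 0.0144), and the call ended without resilient basal 3 (adjusted p = 0.0521). atp6ap1b, which encodes the accessory subunit Ac45, had 37.8, 42.7, 42.3, 44.0 and 43.6 CPM in resilient stressed larvae, against 56.0, 51.9, 55.2 and 55.2 CPM in resilient basal larvae. These groups too were apart, at -0.374 (SE 0.082, edgeR adjusted p = 0.0135), and that call ended without resilient basal 1 (adjusted p = 0.0506). The accessory gene atp6ap2 was at 0.013 (SE 0.064, edgeR adjusted p = 0.938).

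Among stressed larvae tcirg1b was higher in susceptible than in resilient ones by 0.513 (SE 0.13, edgeR adjusted p = 0.0388) and atp6ap1b by 0.347 (SE 0.077, edgeR adjusted p = 0.0215). The call of atp6ap1b ended without resilient stressed 2 or 3 or susceptible stressed 2 or 4 (adjusted p up to 0.064). That of tcirg1b ended without resilient basal 4, resilient stressed 2, 3 or 4, or susceptible stressed 2, 3, 4 or 5 (adjusted p up to 0.102). In both comparisons these calls also ended without resilient stressed 2 and 3, and those between the resilient groups without resilient basal 1 and 3.

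**Figure D3:**
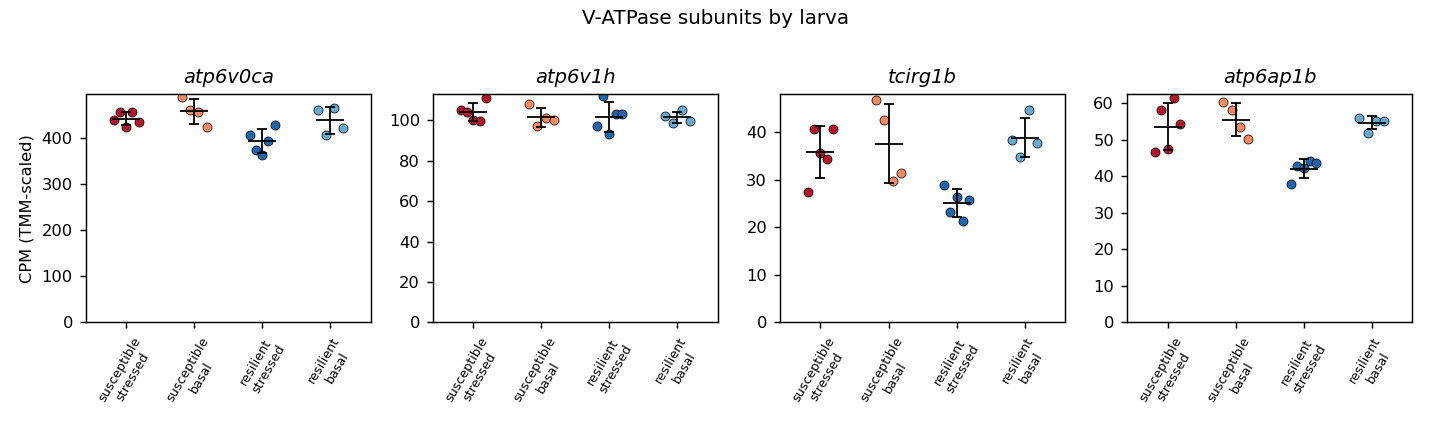
CPM (y axis, from 0) of 4 proton pump genes in each larva (points) of the 4 groups (x axis), with mean and SD. atp6v0ca and atp6v1h overlap between all groups, while tcirg1b and atp6ap1b have their lowest means in the resilient stressed larvae, with values of 21.3 to 28.8 and 37.8 to 44.0 CPM.

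Glycosidases, which remove sugars from glycoproteins and glycolipids, held 0 called genes of 8 in each comparison by edgeR and 0 with an unadjusted p below 0.05. hexb, the beta subunit gene of hexosaminidase, ranged from 73.5 to 125 CPM, with log2 fold changes between -0.0929 and 0.157 in the 4 pairwise comparisons. man2b1, the lysosomal mannosidase gene, ranged from 51.7 to 99.6 CPM, with fold changes between -0.18 and 0.152. The non-lysosomal gba2 ranged from 31.4 to 40.1 CPM, and the glucocerebrosidase gene gba, deficient in Gaucher disease, from 26.5 to 33.0 CPM. Each of these genes overlapped between all groups. The low counts of gaa, gba3 and gla, with means of 1.71, 1.06 and 2.06 CPM, limit what could be seen for them.

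The cofactor, membrane and lipid transport genes held 0 called members of 13 in each comparison by edgeR, and 2, 1, 4, 0 and 0 with an unadjusted p below 0.05. The comparisons in that count are the resilient groups (21.6% of all genes), the susceptible groups (7.45%), the stressed groups (19.9%), the basal groups (5.95%) and the difference of responses (13.1%). psap, whose product is cut into the activator proteins of sphingolipid hydrolases, ranged from 371 to 572 CPM, with log2 fold changes between -0.122 and 0.0814. lamp2, a main glycoprotein gene of the lysosomal membrane, was at 209 ± 19.1 CPM in susceptible basal and 189 ± 15.2 CPM in resilient basal larvae (SD, n = 4 each), with log2 fold change 0.146 (SE 0.079, edgeR adjusted p = 0.853).

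Cholesterol leaves the lysosome through the Niemann-Pick proteins. npc2, the soluble carrier gene, had 110, 113, 123, 119 and 120 CPM in susceptible stressed larvae 1 to 5, against 103, 87.5, 99.4, 88.0 and 99.1 CPM in resilient stressed larvae 1 to 5. The groups did not overlap, which held for 3 members in this direction, beside 2.46% of all genes, against 0 in the other direction, beside 2.52%. The log2 fold change of 0.294 (SE 0.094) did not pass the test (edgeR adjusted p = 0.0841). npc1, the membrane partner gene, was at 103 ± 11.8 CPM in susceptible stressed and 113 ± 7.24 CPM in susceptible basal larvae (SD, n = 5 and 4; log2 fold change -0.143, SE 0.079, edgeR adjusted p = 0.749). npc1l1 was at 38.9 ± 11.9 CPM in susceptible stressed and 69.8 ± 26.2 CPM in susceptible basal larvae, and had the smallest p of the members there (-0.842, SE 0.36, edgeR adjusted p = 0.62). Between the basal groups that place fell to ctsa, the gene of protective protein, a carboxypeptidase, with 63.7 ± 8.29 CPM in susceptible and 54.3 ± 6.43 CPM in resilient basal larvae (0.229, SE 0.12, edgeR adjusted p = 0.847).

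The members differed in how much larvae of the same group varied. The SD of log2 CPM within groups had a median of 0.11 over the 16 V-ATPase genes and 0.23 over the other 37 members, against 0.22 over all genes tested. Genes of like read count were not set beside the V-ATPase genes. These medians therefore cannot show whether pump genes vary less than others of their level. The largest values were those of mcoln3b at 0.84, npc1l1 at 0.58, ctsbb at 0.56, ctsd at 0.55 and ctsba at 0.53, which were picked after their values were seen. mcoln3b, a gene of the mucolipin cation channels, ranged from 1.65 to 14.9 CPM, with the highest value in susceptible basal larva 1. Cathepsin B is encoded by ctsba and ctsbb, which spanned 105 to 411 CPM and 16.7 to 103 CPM.

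ctsbb had 84.2, 72.1, 96.7, 62.9 and 103 CPM in resilient stressed larvae 1 to 5, against 55.4, 61.8, 27.8 and 42.2 CPM in resilient basal larvae 1 to 4. The groups were apart, by a margin of about 1 CPM, and the spread within each was wide. The log2 fold change was 0.838 (SE 0.34, edgeR adjusted p = 0.167). ctsba had the opposite sign, at -0.513 (SE 0.34), with 176, 260, 301, 105 and 159 CPM in resilient stressed larvae against 264, 189, 367 and 324 CPM in resilient basal larvae, and these overlapped.

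ctsd, the gene of the aspartic protease cathepsin D, had 34.1, 34.4, 43.2, 66.3 and 37.1 CPM in susceptible stressed larvae 1 to 5, against 73.2, 72.4, 66.6 and 23.1 CPM in susceptible basal larvae 1 to 4. It had 37.2, 68.1, 73.9, 59.0 and 45.2 CPM in resilient stressed larvae 1 to 5, against 36.2, 63.7, 27.1 and 59.0 CPM in resilient basal larvae 1 to 4. High and low larvae occurred in each group, and its log2 fold changes of -0.454 (SE 0.34) in susceptible and 0.285 (SE 0.34) in resilient larvae did not pass the test (edgeR adjusted p = 0.843 for the first).

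**Figure D4:**
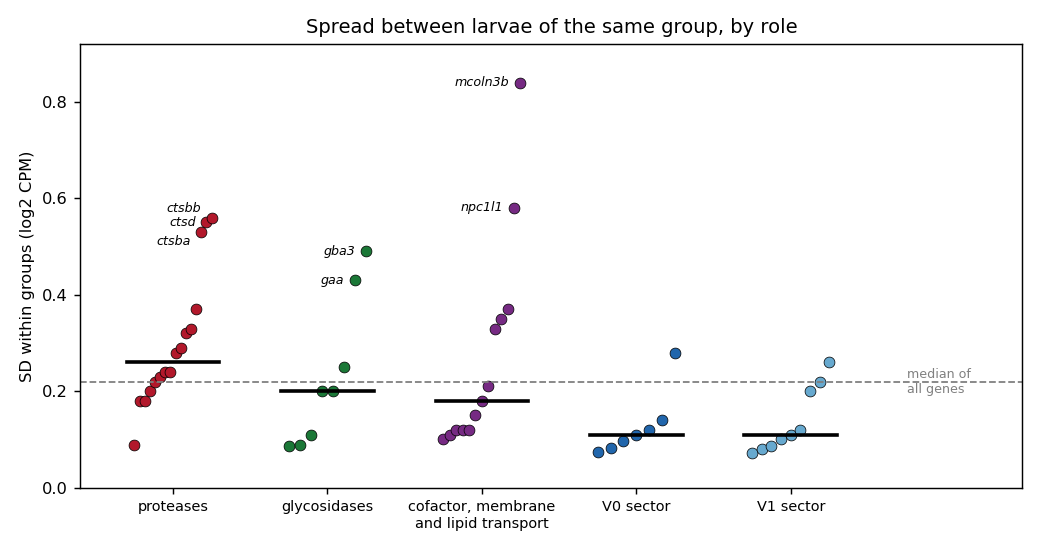
SD of log2 CPM within groups (y axis) for each of the 53 genes (points) by role (x axis), with the median of each role (bar) and of all genes (dashed line, 0.22). V-ATPase medians lie at 0.11, and genes above 0.4 are named.

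**Figure D5:**
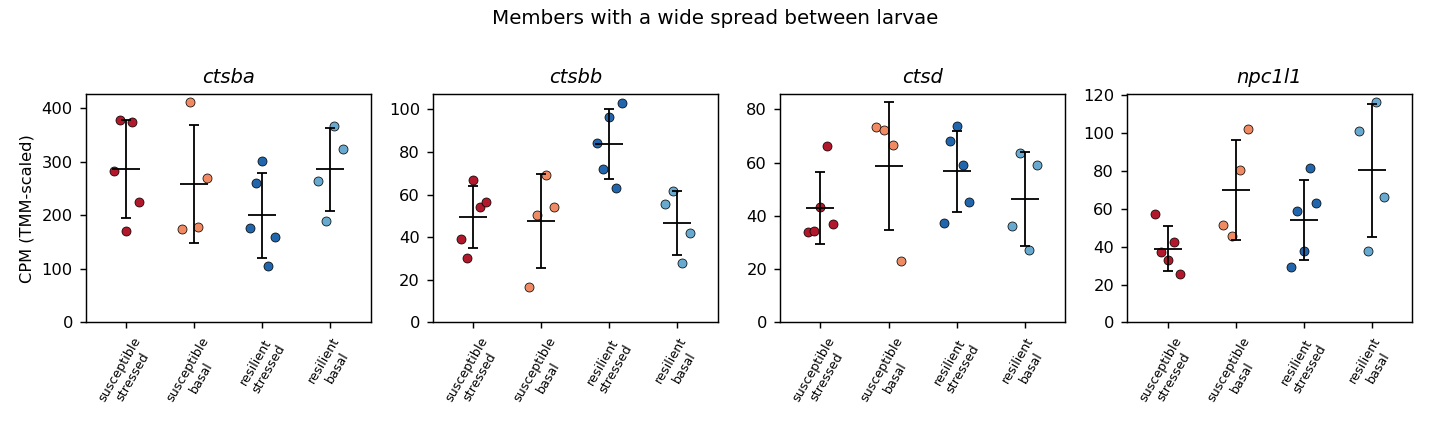
CPM (y axis, from 0) of ctsba, ctsbb, ctsd and npc1l1 in each larva (points) of the 4 groups (x axis), with mean and SD. Larvae of the same group lie far apart, as for ctsd with 23.1 to 73.2 CPM among susceptible basal larvae.

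Further lysosome genes were taken as a list of 90 tested genes outside the symbol rule. The list includes the pump genes tcirg1b and atp6ap1b described above, so their calls are counted again in both comparisons below. Between resilient stressed and resilient basal larvae 6 of the 90 were higher and 5 lower, with a median of -0.0191. Over all 22038 genes 1399 (6.35%) were called, and 791 (3.59%) were called lower. The list was not tested as a set, and it was chosen with earlier results of these data known. That a larger share of its genes than of all genes was called therefore decides nothing. The one with the smallest p was creg1, a lysosomal glycoprotein gene, with 45.6, 57.7, 48.4, 38.1 and 35.1 CPM in resilient stressed larvae 1 to 5, against 28.9, 29.5, 25.1 and 29.3 CPM in resilient basal larvae 1 to 4. All resilient stressed larvae lay above all resilient basal larvae, at 0.673 (SE 0.11, edgeR adjusted p = 0.00363). Lower were the acid nuclease gene dnase2 (-1.02, SE 0.17, edgeR adjusted p = 0.00415) and arsb, a sulfatase gene (-0.854, SE 0.18, edgeR adjusted p = 0.0107). These 3 calls held with any 1 larva left out, and ended without resilient basal 1 and 3. Those of dnase2 and arsb also ended without resilient stressed 2 and 3.

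Between susceptible and resilient stressed larvae 8 of the 90 were higher and 3 lower, with a median of 0.0223. This stands beside 3.55% of all genes called and 1.77% called higher. The list's calls here carry the same limit, and this comparison shares its resilient stressed larvae with the one before it. dnase2 was higher by 0.852 (SE 0.16, edgeR adjusted p = 0.0118), which held with any 1 larva left out. The progranulin gene grna was higher by 1.3 (SE 0.28, edgeR adjusted p = 0.0219), and cd164, a sialomucin gene, was lower (-0.286, SE 0.063, edgeR adjusted p = 0.0208). The calls of grna and cd164 ended without resilient stressed 2 or 3 or susceptible stressed 4, and those of all 3 without resilient stressed 2 and 3 together. In the other comparisons 0 of the 90 were called by edgeR.

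Of 32 tested genes listed as regulators of lysosome formation, 0 were higher and 2 lower between resilient stressed and resilient basal larvae. This stands beside 6.35% of all genes called and 3.59% called lower. The 2 were arl8bb (-0.471, SE 0.12, edgeR adjusted p = 0.0319) and mitfa (-1.06, SE 0.29, edgeR adjusted p = 0.0367). Their mean levels were low, at 7.38 and 1.61 CPM. The call of arl8bb ended without resilient basal 1, 2 or 3 or resilient stressed 2 or 3, and that of mitfa without resilient basal 1 or 2 or resilient stressed 2, 3 or 4 (adjusted p up to 0.0919 and 0.113). Both ended without resilient basal 1 and 3 together, without resilient stressed 2 and 3 together and in a fit of the resilient larvae alone. Between susceptible and resilient stressed larvae 0 were higher and 1 was lower, beside 3.55% of all genes called. It was plekhm1 (-0.598, SE 0.16, edgeR adjusted p = 0.0403). That call ended without resilient stressed 2, 3 or 4 or susceptible stressed 1, 3, 4 or 5 (adjusted p up to 0.0923), and without resilient stressed 2 and 3 together (adjusted p = 0.183). tfeb, whose product is a main transcription factor of lysosomal genes in mammals, had 15.7, 15.6, 15.9, 14.8 and 13 CPM in resilient stressed larvae 1 to 5, against 13.5, 12, 13.7 and 12.5 CPM in resilient basal larvae 1 to 4. The groups overlapped at resilient stressed larva 5, and the log2 fold change of 0.216 (SE 0.12) did not pass the test (edgeR adjusted p = 0.304).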

How the data were processed

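For 18 libraries the authors deposited a table with raw read counts by symbol, beside log2 fold changes and adjusted p-values of their own comparisons, as its headers name them. The tools named in the submitters' processing notes are cutadapt, STAR and DESeq2, with the build danRer11. No source used here names the read counter or whether strand was used, so antisense and overlapping genes cannot be separated. Deposited p-values were used only to count members below 0.05, and deposited log2 values were not printed. A further 36 columns, each of a single sample, were not used. The 15 rows with a date as name, with 0.0613% to 0.0698% of reads, were left out.

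All comparisons came from 1 fit of 4 group means over 18 libraries in edgeR 4.0.16 under R 4.3.3. It used filterByExpr, TMM factors and the robust quasi-likelihood F test across all genes. The SE was obtained by dividing the size of the log2 fold change by the root of F. Libraries held 8452595 to 23801175 reads, and the steps were tested on simulated data. Alternatives were DESeq2 1.42.0, RLE factors, other filters, the groups compared alone, replicate blocks, 1 surrogate variable (sva 3.50.0), and larvae left out. Members and lists were chosen with earlier results of these data known. Named genes were called members, the 3 smallest p where under 5 were called, the 3 with most reads per role, and up to 4 called genes per list. Others were named outside these rules, with their values known: ctsz, ctsh, ctsf, atp6v0e1, atp6ap2, tfeb, gaa, gla, gba and gba3 among them. Promoter motifs were not analysed here.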

Additional observations from a re-analysis of the deposited data

Results flagged for a closer look

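Among 212 groups of larvae (53 genes in 4 groups), 9 held a larva whose gap to the next one passed Dixon's limit, where chance gives about 10.6. Atp6v genes had 5 of them. atp6v0a1a was at 75.3 CPM in susceptible stressed 4 (others 62.6 to 65.6), and atp6v1d at 147 CPM in susceptible basal 1 (others 135 to 137). atp6v1f was at 52.7 CPM in resilient stressed 5 (others 42.6 to 43.9), and atp6v1c1a at 86.8 CPM in resilient stressed 4 (others 97.3 to 101). atp6v1ab was at 24.3 CPM in resilient basal 1 (others 17.7 to 18.3). Its sum with its numbered copy was 24.4 CPM in that larva, inside the 21.6 to 26.2 CPM of the others. ctsd was high in susceptible stressed 4 at 66.3 CPM (others 34.1 to 43.2) and low in susceptible basal 4 at 23.1 CPM (others 66.6 to 73.2). neu1, a sialidase gene, was at 19.6 CPM in resilient stressed 4 (others 21.2 to 21.8), and npc1 at 81.8 CPM in susceptible stressed 1 (others 105 to 110).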

How the results depend on the processing

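No log2 fold change of a named member changed its sign in the comparison that named it. A fit of only the groups compared has no value for the difference of responses, and a search for promoter motifs was not run. Between resilient stressed and resilient basal larvae the count of called members (3) became 7 with DESeq2, 0 without resilient basal 1 and 3, and 0 without resilient stressed 2 and 3. It ran from 2 to 6 with 1 larva left out, with 5 without resilient basal 2 and 6 without resilient stressed 5. Between susceptible and resilient stressed larvae the count (3) became 0 with a replicate block by title number, 0 with 1 surrogate variable and 0 without resilient stressed 2 and 3. It ran from 0 to 4 with 1 larva left out: 0 without resilient stressed 2, 3 or 4 or susceptible stressed 4 or 5, and 1 without susceptible stressed 2 or 3. For the difference of responses (0) it was 2 with DESeq2 and 0 to 1 with 1 larva left out. In the susceptible and the basal comparison it stayed 0 to 0 throughout. The fits with fewer larvae have less power by construction, and otherwise the cause was not tested. Of 25 pairs with a shared title number 2 had deviations correlated above 0.1, and for bracket numbers 4 of 19. Pairs with unlike numbers were not set beside these, so the counts cannot decide whether the numbers pair larvae. With the block by title number 2 members were called between the resilient groups, and with that by bracket number 3, where larvae with an unshared number add nothing. The call of ctss2.2 there ended with either block (adjusted p = 0.0603 and 0.139), and atp6v0e1 was called with the block by bracket number. Genes of few reads (gba3, gaa, gla, mcoln2) allow only large changes to be seen.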

Other observations

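Members with a numbered copy in the table were counted without it. For atp6v1ab, a gene of the catalytic A subunit of the V-ATPase, the copy was at 0.161, 5.25, 3.39, 4.26 and 5.47 CPM in susceptible stressed larvae 1 to 5, against 0.112, 4.19, 4.72 and 5.43 CPM in susceptible basal larvae 1 to 4. It was at 5.09, 0.0824, 0.173, 0 and 0.608 CPM in resilient stressed larvae 1 to 5, against 0.0914, 3.97, 7.89 and 6.08 CPM in resilient basal larvae 1 to 4. The copy was thus near 0 in 1 or more larvae of every group and in 4 of 5 resilient stressed larvae. It did not pass the test between resilient stressed and resilient basal larvae (-1.98, SE 1.2, edgeR adjusted p = 0.358). Nor did it between susceptible and resilient stressed larvae (1.7, SE 1.1, edgeR adjusted p = 0.426). The member itself ranged from 15.7 to 24.8 CPM, and its sum with the copy from 20 to 26.7 CPM. The summed level averaged 23.4 ± 2.05 CPM in susceptible stressed, 22.8 ± 1.79 CPM in susceptible basal, 23.5 ± 2.70 CPM in resilient stressed and 24.1 ± 1.88 CPM in resilient basal larvae (SD, n = 5, 4, 5 and 4). Within groups the SD of log2 CPM was 0.2 for the member and 0.14 for the sum. For atp6v1b2, a gene of the B subunit, these values were 0.22 and 0.12.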
